A study of Homo sapiens with 14 samples.

Results

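The comparison described here set K562 cells in which an inactive Cas9 was directed to the enhancer HS2 of the β-globin locus (sgHS2, n = 3) against K562 cells that carried the same inactive Cas9 and the non-targeting sgRNA sgGal4 (n = 3). These 6 RNA-seq libraries were taken by their labels from the 14 libraries of the series. The other groups were K562 cells with sgRNAs to the fetal globin promoters (sgHBG, n = 3), cells with sgRNAs named sgHS1-5 for elements of the locus control region (n = 3) and unmodified cells (WT, n = 2). The sgHS2, sgGal4, sgHBG and sgHS1-5 cells all stably expressed FB-dCas9, which is catalytically inactive Cas9 with a Flag and biotin-acceptor tag, together with the biotin ligase BirA. The labels give neither the age of the cultures nor the time after sgRNA delivery and do not say if replicates came from separate cultures. The p values therefore rest on the spread between these libraries alone, and that spread may be technical. Since every sgRNA group is a stable population of its own, effects of the sgRNAs and other differences between the populations cannot be told apart.

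The human β-globin genes lie in a cluster in the order in which they are used in development, with the embryonic gene HBE1, the fetal genes HBG2 and HBG1, the pseudogene HBBP1 and the adult genes HBD and HBB. A set of DNase I hypersensitive sites upstream of HBE1, the locus control region, drives their high transcription in erythroid cells, and HS2 is the site of this region with strong classical enhancer activity. K562 is a chronic myeloid leukemia line with erythroid features that transcribes the embryonic and fetal globin genes and hardly any HBB. Inactive Cas9 binds the site its sgRNA specifies without cutting DNA.

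The sgHS2 libraries held 11285274, 9765587 and 10622959 counted reads, against 9498578, 10782074 and 11335831 in the sgGal4 libraries. A count of 0 allows a level of up to 0.262 to 0.322 CPM (counts scaled to library size) in sgHS2 and 0.275 to 0.426 CPM in sgGal4 libraries. Library sgHS2 2 and, more so, library sgGal4 1 stood apart from the other replicates of their groups. Between replicates, the χ² per degree of freedom was 1.76 for sgHS2 1 and 3 and 16.6 to 17.3 for pairs with sgHS2 2. The same measure was 1.49 for sgGal4 2 and 3 and 90.1 to 93.9 for pairs with sgGal4 1, and it lay between 38.6 and 143 for pairs from different groups. Set against the other replicates of their group, the fifth of genes with the shortest transcripts had a median log2 deviation of 0.27 in sgHS2 2 and 0.65 in sgGal4 1, and the fifth with the longest of −0.29 and −0.64. In the other 4 libraries it was −0.12 to −0.33 for short and 0.13 to 0.34 for long transcripts. The replicates these 4 were set against included sgHS2 2 or sgGal4 1. Their opposite signs therefore do not show a length trend of their own. Results are therefore also given without these 2 libraries. The K562 markers were present in every library, with GATA1, an erythroid transcription factor, at 167 to 219 CPM in sgHS2 and 148 to 260.4 CPM in sgGal4 cells. CDKN2A and CDKN2B, which lie in the 9p21 region that K562 lacks, had 0 counts in all 6 libraries. MTAP, of the same region, had 0.175, 0 and 0.0921 CPM in sgHS2 and 0 CPM in sgGal4 libraries. In sgHS1-5 1 to 3, which enter the fit of all 14 libraries, CDKN2A had 0.162, 5.60 and 1.49 CPM. MTAP had 0.972, 17.6 and 3.38 CPM there. The source of these reads was not tested.

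Of 14406 genes tested, 2083 (14.5%) were higher and 2249 (15.6%) were lower in sgHS2 than in sgGal4 cells at an adjusted p under 0.05, the threshold for a call. Fitted on the 6 compared libraries alone, 1216 genes were higher and 1090 lower. At least 2-fold changes in the fit of all 14 libraries were called for 888 higher and 794 lower genes. Without sgHS2 2 and sgGal4 1, 2740 genes (19% of those tested) were higher and 3311 (23%) lower. Of the genes called with all libraries, 1881 of the 2083 and 2146 of the 2249 kept their call there, and 0 changed sign. With the trend on transcript length removed from each library, 16.6% of genes were called higher and 19.7% lower. The same fit called 17.6% of genes higher and 15.5% lower in sgHS2 than in WT cells, 3.76% higher and 5.15% lower in sgHS2 than in sgHBG cells, and 18.5% higher and 20.4% lower in sgHS2 than in sgHS1-5 cells. Between sgGal4 and WT cells it called 22.7% of genes higher and 19.6% lower in sgGal4. Comparisons that use the same sgHS2 or sgGal4 libraries are not independent of each other. These percentages are the background for the counts of members given below. Of the 4332 genes called between sgHS2 and sgGal4 cells, 4113 did not overlap between the groups. Lack of overlap is therefore the rule among called genes and does not set apart the genes named below.

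HBE1, HBG2, HBG1 and HBBP1 rose in sgHS2 cells, HBD was not called and HBB was near 0. When only the 6 compared libraries were fitted, HBE1 (adjusted p = 0.0827) and HBG1 (adjusted p = 0.169) were no longer called. HBE1, the embryonic β-like globin, had 634, 826 and 618 CPM in sgHS2 1 to 3, against 544, 240 and 239 CPM in sgGal4 1 to 3 (log2 difference 1.02 ± 0.28, SE, adjusted p = 0.0143). The groups did not overlap, but sgGal4 1 lay closer to the sgHS2 libraries than to the other sgGal4 libraries. HBG2, which encodes the Gγ chain of fetal hemoglobin, had 246, 324 and 243 CPM in sgHS2, against 166, 58.1 and 60.5 CPM in sgGal4 cells (log2 1.52 ± 0.33, adjusted p = 0.00433). Its groups did not overlap either, and sgHS2 2 was again the highest library. HBG1, the near-identical gene for the Aγ chain, had 123, 177 and 126 CPM in sgHS2, against 130.1, 47.1 and 46.5 CPM in sgGal4 cells (log2 0.93 ± 0.33, adjusted p = 0.0476). Here the groups overlapped, with sgGal4 1 above sgHS2 1 and 3. How reads shared by HBG1 and HBG2 were assigned is not given in the sources used here, so the split between them is uncertain. Per transcript length, the authors' RPKM values of HBE1 were 804, 1055 and 793 in sgHS2, against 713, 334 and 328 in sgGal4 cells, and those of HBG2 were 563, 767 and 564 in sgHS2, against 399, 140.0 and 142 in sgGal4 cells. In each of these libraries HBE1 was the more abundant of the 2 genes per length.

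HBBP1, a transcribed pseudogene between the fetal and adult genes, was lower than these genes by far, with 2.27, 4.29 and 3.50 CPM in sgHS2, against 1.28, 1.26 and 1.19 CPM in sgGal4 cells (log2 1.42 ± 0.28, adjusted p = 0.00216). Its groups did not overlap, but the sgGal4 values rested on 9, 13 and 13 reads. In CPM, sgGal4 1 lay near the other sgGal4 libraries, while its RPKM value of 3.13 was above theirs of 1.59 and 2.21. HBD, the gene of the minor adult δ chain, had 5.60, 6.33 and 6.17 CPM in sgHS2, against 5.67, 3.77 and 3.21 CPM in sgGal4 cells (log2 0.53 ± 0.22, adjusted p = 0.0832). The groups overlapped through sgGal4 1. For HBB, the adult β chain gene, the only read among the 6 libraries was 1 in sgHS2 3. In bulk RNA a change in the share of cells that transcribe a globin gene and a change in RNA per cell cannot be told apart.

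**Figure D1:**
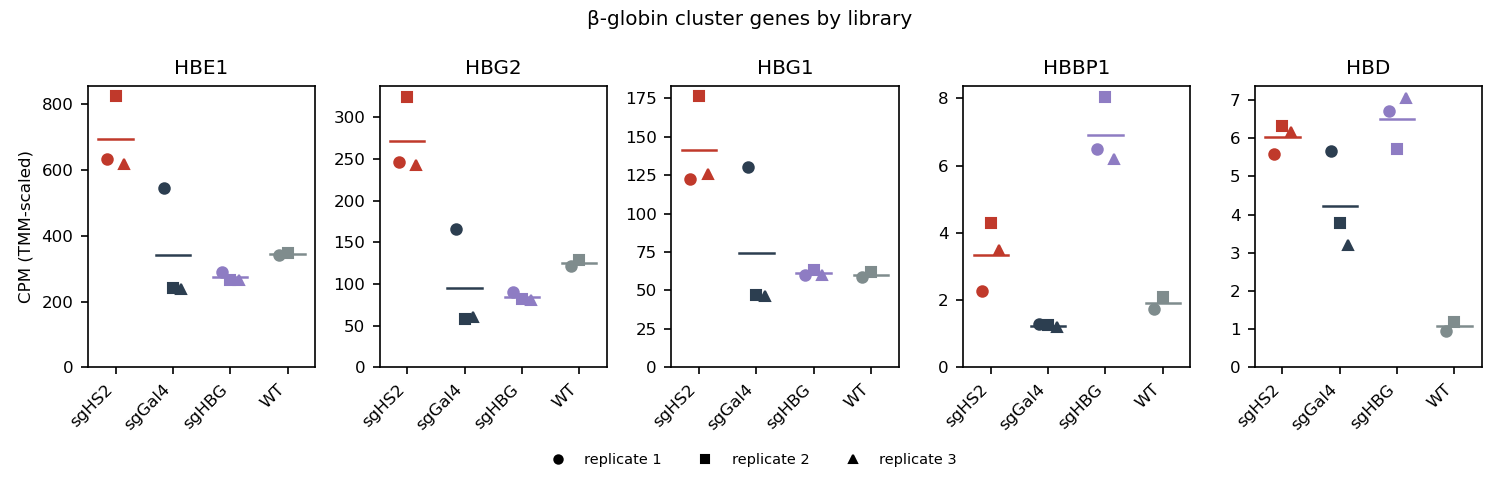
Levels of 5 β-globin cluster genes in CPM for each library of the sgHS2, sgGal4, sgHBG and WT groups, with replicates as symbols and group means as lines. HBE1 reached 618 to 826 CPM in sgHS2 cells, while sgGal4 1, at 544 CPM, stood above the other sgGal4 libraries at 240 and 239 CPM.

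The β-globin transcripts are short. The longest annotated transcript of HBE1 spans 918 bases and that of HBG2 694 bases, which places them at percentiles 2.96 and 1.31 of transcript length, and the fifth of genes with the shortest transcripts was highest, relative to replicates, in sgGal4 1. With the length trend removed, all 5 tested genes of the cluster were called higher, with log2 differences of 1.28 for HBE1 (adjusted p = 1.28e-05), 1.81 for HBG2, 1.17 for HBG1 (adjusted p = 0.000541), 1.52 for HBBP1 and 0.72 for HBD (adjusted p = 0.00521). Without sgHS2 2 and sgGal4 1, all 5 were likewise called, at 1.36, 2.02, 1.39, 1.21 and 0.73. Without sgHS2 2 alone the call of HBE1 was lost (log2 0.88, adjusted p = 0.0513), as it was without sgGal4 2 (log2 0.82, adjusted p = 0.0514), and that of HBG1 was lost without any of the 6 libraries other than sgGal4 1 (log2 0.68 to 1.03).

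The make-up of the cluster's RNA was compared as a description. The cluster's genes summed to 1011, 1337 and 997 CPM in sgHS2, against 847, 351 and 350.4 CPM in sgGal4 and 525 and 542 CPM in WT cells. HBE1 gave 61.8 to 62.7% of these reads in sgHS2, against 64.2 to 68.6% in sgGal4 libraries, and the fetal genes together gave 36.5 to 37.4% in sgHS2, against 30.0 to 35.0% in sgGal4 libraries. The count of HBG2 reads was 1.84 to 2.01 times that of HBG1 reads in sgHS2, against 1.23 to 1.30 times in sgGal4 and 2.08 times in both WT libraries. For both shares and the ratio the sgHS2 and sgGal4 libraries did not overlap. The shares are nearly complements and so are not separate measures, and the ratio depends on how shared reads were assigned. HBE1 gave 63.9 to 65.1% in WT and 62.5 to 63.9% in sgHBG libraries, which overlapped sgHS2 libraries. The fetal share was 33.2 to 35.3% in WT and sgHBG libraries, below that in sgHS2. The smallest two-sided p that an exact permutation test of 3 against 3 libraries can give is 0.1, so the differences were not tested.

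Relative to the other groups, the embryonic and fetal genes in sgHS2 cells were above WT and sgHBG cells. Against WT cells, the log2 differences were 1.01 for HBE1 (adjusted p = 0.0262), 1.11 for HBG2 (adjusted p = 0.0373) and 1.23 for HBG1 (adjusted p = 0.0238), and HBBP1 at 0.80 was not called (adjusted p = 0.0542). The sgGal4 cells were not called different from WT cells for HBE1 (log2 −0.01), HBG2 (log2 −0.41) or HBG1 (log2 0.30), but this rested on sgGal4 1. Without that library HBE1 (log2 −0.52, adjusted p = 0.0231) and HBG2 (log2 −1.08, adjusted p = 0.000341) were lower in sgGal4 than in WT cells, and HBG1 was at −0.36 (adjusted p = 0.134). HBD was higher in sgHS2 (6.03 CPM on average) than in WT cells (1.07 CPM, log2 2.47, adjusted p = 3.64e-05), and it was also higher in sgGal4 (4.22 CPM) than in WT cells (log2 1.94, adjusted p = 0.000197). Against sgHBG cells, HBE1 (log2 1.34, adjusted p = 0.0107), HBG2 (log2 1.69, adjusted p = 0.00792) and HBG1 (log2 1.21, adjusted p = 0.038) were higher, HBBP1 was lower (log2 −1.05, adjusted p = 0.0172) and HBD was not called. Against sgHS1-5 cells, HBE1 was higher (log2 1.46, adjusted p = 0.00146) while HBG2 (log2 0.25) and HBG1 (log2 0.08) were not called.

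HBD was the cluster gene whose promoter the RefSeq table held. The stretch from 250 bases before to 50 bases after its start site lies at chr11:5234434-5234733 (GRCh38.p14, minus strand). It is shown to mark the letters CCAAT and GATAA, which were searched for. A match describes these letters only, and the CCAAT match is not taken to be the CCAAT box of globin genes. Capitals mark CCAAT, at −153 to −149 from the start site, and TTATC, the reverse complement of GATAA, at −78 to −74.
HBD: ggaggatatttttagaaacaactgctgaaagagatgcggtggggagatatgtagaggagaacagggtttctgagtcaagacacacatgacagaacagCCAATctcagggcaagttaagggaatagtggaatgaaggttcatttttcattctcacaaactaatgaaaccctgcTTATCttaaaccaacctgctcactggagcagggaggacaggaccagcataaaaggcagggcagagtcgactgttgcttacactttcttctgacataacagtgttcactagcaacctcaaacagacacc
The motif CACCC was not among these letters on either strand. Of 27305 human promoters of this length, 35.7% held CCAAT, 23.2% GATAA and 58.9% CACCC on either strand, so these matches are common.

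Genes around the cluster on chromosome 11 showed no common direction. Of 16 tested neighbours, 3 rose and 2 fell, and the median log2 difference was −0.18 against −0.02 over all genes. OR51B5, an olfactory receptor gene beside the cluster, had 69.0, 57.5 and 66.3 CPM in sgHS2, against 101, 118 and 132 CPM in sgGal4 cells, and fell (log2 −0.87, adjusted p = 0.000831). RRM1, the large subunit of ribonucleotide reductase, fell (log2 −0.64), while TRIM21, an antibody receptor of the cytosol, rose (log2 0.89). The groups of these 3 genes did not overlap. OR51B4 had 32.7, 25.1 and 29.4 CPM in sgHS2, against 15.3, 30.4 and 31.6 CPM in sgGal4 cells, which overlapped.

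Among 11 tested genes of the α-globin cluster and its flank on chromosome 16, 0 rose and 1 fell. HBZ, the embryonic α-like globin, had 9.09, 13.4 and 7.74 CPM in sgHS2, against 7.94, 5.71 and 6.24 CPM in sgGal4 cells, and was not called (log2 0.61, adjusted p = 0.058). HBA1 and HBA2, the near-identical adult α genes, were at 0.0921 to 1.29 CPM in sgHS2 and 0.183 to 3.12 CPM in sgGal4 libraries and were not called. How reads shared by HBA1 and HBA2 were treated is not given in the sources used here. Their levels are therefore uncertain, and low counts do not show that α-globin RNA was low. The gene that fell was ARHGDIG, with 0.107 to 0.184 CPM in sgHS2, against 0.484 to 1.56 CPM in sgGal4 cells.

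Most regulators of globin transcription were not called. Of 36 tested, 5 rose and 1 fell, near the background of 14.5% and below that of 15.6%. TAL1, a subunit of the GATA1 complex, had 84.7, 83.7 and 84.5 CPM in sgHS2, against 42.6, 50.2 and 53.3 CPM in sgGal4 cells (log2 0.79, adjusted p = 0.00127). GATA2, the GATA factor of progenitors, rose (log2 0.52, adjusted p = 0.00666), as did SOX6, a repressor of fetal globin genes (log2 1.13, adjusted p = 0.0133). SOX6 varied within sgHS2, at 13.9, 6.86 and 14.8 CPM, and its call was lost without sgHS2 1 (log2 1.01) or sgHS2 3 (log2 0.94). TCF3, an E protein that pairs with TAL1, fell (log2 −0.68, adjusted p = 0.000145). Of the 36, 6 were higher and 2 lower in sgHS2 than in WT cells. TAL1, at 144 CPM on average in WT cells, was lower in sgHS2 than there (log2 −0.77). GATA2 was higher in sgHS2 than in WT cells (log2 0.54), and SOX6 (log2 −0.38) and TCF3 (log2 −0.18) were not called. GATA1 (log2 0.00), KLF1 (log2 −0.22), NFE2 (log2 0.20) and LDB1 (log2 0.38) were not called, and BCL11A, a repressor of fetal globin genes, had 0 counts in all 6 libraries.

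Of 21 tested genes of heme synthesis, 7 rose and 0 fell, with 8 higher and 3 lower without sgHS2 2 and sgGal4 1. Up to 3 were called lower when a single library was left out. ALAS2, the erythroid enzyme that starts heme synthesis, had 168, 186 and 165 CPM in sgHS2, against 67.2, 42.3 and 48.6 CPM in sgGal4 cells (log2 1.72 ± 0.18, adjusted p = 1.86e-05). The mitochondrial iron importer SLC25A37 (log2 1.14), ferrochelatase FECH (log2 0.81) and CPOX, a late enzyme of the pathway (log2 0.68), also rose with no overlap between the groups. Set beside WT cells, ALAS2 and CPOX were higher in sgHS2 than in WT cells (log2 0.78 and 1.16), SLC25A37 was not called (log2 −0.01) and FECH was lower (log2 −0.84). Of 18 tested genes of iron uptake and storage, 3 rose and 3 fell. NCOA4, the receptor that delivers ferritin for breakdown, rose (log2 0.81), and STEAP3, an endosomal ferrireductase (log2 −1.20), and TFR2, the transferrin receptor 2 (log2 −0.91), fell.

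Erythroid membrane genes were called in both directions. Of 29 tested, 11 rose and 5 fell. DMTN, an actin-bundling protein of the membrane skeleton, had 45.4, 48.6 and 44.2 CPM in sgHS2, against 13.3, 13.7 and 13.5 CPM in sgGal4 cells (log2 1.77 ± 0.13, adjusted p = 1.26e-06), and the WT mean was 9.24 CPM. ADD1, another protein of that skeleton, rose as well (log2 0.81). AQP1, the water channel of red cells, fell to 12.5, 12.1 and 11.5 CPM in sgHS2, against 59.7, 61.3 and 63.9 CPM in sgGal4 cells (log2 −2.35, adjusted p = 1.19e-06), and ACHE, which carries the Yt antigen, fell as well (log2 −2.73). Against WT cells the count went the other way, with 4 of the 29 higher and 12 lower in sgHS2.

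Interferon-stimulated genes rose in sgHS2 cells: of 42 tested, 31 were called higher and 2 lower, and the median log2 difference was 0.96. These genes are normally induced when cytosolic sensors of foreign RNA or DNA lead to interferon signalling through STAT2 and IRF9. Among sensors, IFIH1, which binds long double-stranded RNA, had 40.8, 37.6 and 41.1 CPM in sgHS2, against 4.40, 6.0 and 6.51 CPM in sgGal4 cells (log2 2.80 ± 0.16, adjusted p = 1.78e-07). DDX58, the sensor RIG-I, rose as well (log2 1.83, adjusted p = 0.00122), as did DHX58, another member of this helicase family (log2 1.33). Among signal transducers, STAT2 rose (log2 0.35, adjusted p = 0.0169) and so did IRF9 (log2 0.45, adjusted p = 0.0261), which was not called without sgHS2 2 and sgGal4 1 (log2 0.40, adjusted p = 0.0616). Among effectors, IFIT1, which binds foreign RNA ends, had 3.32, 3.33 and 3.50 CPM in sgHS2, against 0.284, 0.0968 and 0.275 CPM in sgGal4 cells. SP110, a nuclear body protein, had 17.2, 23.9 and 21.3 CPM in sgHS2, against 2.13, 1.16 and 1.28 CPM in sgGal4 cells (log2 3.81). For these genes every sgHS2 library lay above every sgGal4 library, and lack of overlap was the rule among called genes.

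The interferon genes differed in size of response and in how they stood to the other groups. CXCL10, an interferon-induced chemokine outside the list, had 138 reads in the 3 sgHS2 libraries and 1 in the sgGal4 libraries, a scaled ratio of 123 (95% interval 21.8 to 4911). DDX60, an antiviral helicase, had 97 reads in sgHS2 and 1 in sgGal4 libraries, a ratio of 86.8 (15.2 to 3462). These exact binomial intervals cover counting error only, because amplified reads that carry no identifiers of single molecules are not independent. IFITM2, a membrane restriction factor, fell (log2 −0.95, adjusted p = 0.000346), and USP18, a brake on interferon signalling, fell too (log2 −0.79, adjusted p = 0.00163). ADAR (log2 −0.11), BST2 (log2 −0.04) and IFITM3 (log2 −0.08) were not called. Against WT cells, 22 of the 42 were higher and 0 lower in sgHS2, with IFIH1 at a log2 difference of 3.71. Against sgHBG cells, 4 were higher, 0 lower, and IFIH1 was at 0.87 (adjusted p = 0.00201). Without sgHS2 2 and sgGal4 1, 31 were higher and 5 lower than in sgGal4 cells, and without sgGal4 1 alone 4 were lower.

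The promoters of IFIH1, CXCL10 and IFIT1 are shown because GAAANNGAA, the core shared by sites of interferon regulatory factors, occurs in them. Sequences are RefSeq promoters of GRCh38.p14 on the coding strand, and capitals mark the motif or its reverse complement, which is the motif on the other strand. IFIH1 lies at chr2:162318635-162318934 (minus strand), CXCL10 at chr4:76023448-76023747 (minus strand) and IFIT1 at chr10:89392373-89392672 (plus strand).
IFIH1: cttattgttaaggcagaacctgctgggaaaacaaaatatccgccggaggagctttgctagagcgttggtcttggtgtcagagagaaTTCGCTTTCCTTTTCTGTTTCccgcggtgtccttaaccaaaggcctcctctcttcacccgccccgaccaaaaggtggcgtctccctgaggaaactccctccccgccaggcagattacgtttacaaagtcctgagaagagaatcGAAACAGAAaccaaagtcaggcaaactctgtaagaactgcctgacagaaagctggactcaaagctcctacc
CXCL10: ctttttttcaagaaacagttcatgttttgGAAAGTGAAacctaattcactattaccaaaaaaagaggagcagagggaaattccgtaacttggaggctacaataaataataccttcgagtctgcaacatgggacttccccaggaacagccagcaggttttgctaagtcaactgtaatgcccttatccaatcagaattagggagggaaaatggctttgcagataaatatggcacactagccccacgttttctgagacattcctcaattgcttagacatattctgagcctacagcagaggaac
IFIT1: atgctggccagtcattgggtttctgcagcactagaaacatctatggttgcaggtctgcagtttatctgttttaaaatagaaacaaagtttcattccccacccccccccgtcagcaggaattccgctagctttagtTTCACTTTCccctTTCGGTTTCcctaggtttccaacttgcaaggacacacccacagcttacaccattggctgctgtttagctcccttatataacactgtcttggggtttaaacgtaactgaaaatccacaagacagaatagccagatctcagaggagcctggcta
In IFIH1, 3 overlapping matches on the other strand filled −164 to −144 from the start site, and a match stood at −21 to −13. The CXCL10 match was at −221 to −213, and the IFIT1 matches were at −115 to −107 and −102 to −94. Of the 37 listed interferon genes with a promoter in the table, 23 (62.2%) held the motif on either strand, against 8.29% of all 27305 promoters. Among the 26 that rose, 14 held it. A match describes these letters and does not show binding.

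Most tested genes of the hypoxia response were higher in sgHS2 cells. Of 26 tested hypoxia genes, 16 rose and 3 fell, with a median log2 difference of 0.60, and 1 fell without sgHS2 3. VEGFA, the vascular growth factor, had 443, 429 and 467 CPM in sgHS2, against 139, 153 and 156 CPM in sgGal4 cells (log2 1.58 ± 0.10, adjusted p = 5.87e-07). The prolyl hydroxylases that mark HIF for breakdown, EGLN1 (log2 1.12) and EGLN3 (log2 1.77), rose, as did BNIP3L, a mitophagy receptor (log2 1.08), and NDRG1, a stress gene (log2 1.83). Each of these genes was separated between the groups in all 6 libraries. PLOD2, a collagen lysyl hydroxylase, went the other way, with 1.92, 1.29 and 2.21 CPM in sgHS2, against 31.6, 45.9 and 40.3 CPM in sgGal4 cells (log2 −4.42). Its WT mean of 0.471 CPM was nearer to sgHS2 cells. VEGFA averaged 516 CPM in WT cells and was not called between sgHS2 and WT cells (log2 −0.21). In sgGal4 cells VEGFA was lower than in WT cells (log2 −1.79). EGLN1 (log2 0.41) and BNIP3L (log2 0.83) were higher in sgHS2 than in WT cells.

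Of 23 tested genes of glycolysis, 9 rose, 0 fell and 14 were not called, with a median log2 difference of 0.37. LDHA, the muscle-type lactate dehydrogenase, had 838, 919 and 854 CPM in sgHS2, against 390.1, 368 and 369 CPM in sgGal4 cells (log2 1.21 ± 0.09, adjusted p = 1.4e-06). PGK1, an ATP-producing step of the pathway, had 554, 581 and 556 CPM in sgHS2, against 296, 291 and 275 CPM in sgGal4 cells. ALDOA, the aldolase of muscle, had 1852, 2357 and 1762 CPM in sgHS2, against 1104, 789 and 758 CPM in sgGal4 cells, and it was the gene with the largest CPM rise under the naming rule. PKM, pyruvate kinase, rose (log2 1.10) and so did GAPDH (log2 0.65), while ENO1 (log2 0.24), TPI1 (log2 −0.07) and HK2 (log2 −0.26) were not called. Relative to WT cells, 12 of the 23 were higher and 2 lower in sgHS2, and relative to sgHBG cells 9 were higher and 0 lower. Relative to sgHS1-5 cells, LDHA (log2 −0.78, adjusted p = 3.28e-05) and GAPDH (log2 −0.35, adjusted p = 0.0374) were lower in sgHS2. ALDOA (log2 −0.13), PGK1 (log2 −0.10) and PKM (log2 0.15) were not called there. Hypoxia genes gave 15 higher and 1 lower against WT and 13 and 0 against sgHBG cells.

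The LDHA promoter is shown because it holds several copies of ACGTG, the core letters of the HIF site. It is the RefSeq promoter at chr11:18394313-18394612 (GRCh38.p14, plus strand), with ACGTG and its reverse complement CACGT in capitals.
LDHA: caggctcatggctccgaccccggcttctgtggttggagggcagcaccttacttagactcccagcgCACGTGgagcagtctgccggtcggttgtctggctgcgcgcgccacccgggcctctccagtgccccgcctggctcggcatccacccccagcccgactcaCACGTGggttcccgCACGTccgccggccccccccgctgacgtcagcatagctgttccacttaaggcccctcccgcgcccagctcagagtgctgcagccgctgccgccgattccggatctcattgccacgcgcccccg
The runs at −185 to −180 and at −87 to −82 from the start site read on both strands, and a further match stood at −73 to −69. Of 22 glycolysis promoters, 8 (36.4%) held ACGTG, and of 23 hypoxia promoters 14 (60.9%), against 21.6% of all promoters. Among glycolysis genes that rose, 6 of 8 held it, and among hypoxia genes 5 of 11 that rose and 3 of 3 that fell.

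Cholesterol synthesis genes were lower in sgHS2 than in sgGal4 cells: of 27 tested, 0 rose and 21 fell, with a median log2 difference of −0.91. The transcription factor SREBP-2 drives these genes when sterols run low. Early in the pathway, HMGCS1, the cytosolic HMG-CoA synthase, fell (log2 −1.30). At the committed step to sterols, FDFT1, squalene synthase, had 545, 610 and 545 CPM in sgHS2, against 1645, 1083 and 1050 CPM in sgGal4 cells. CYP51A1, lanosterol demethylase, had 177, 162 and 166 CPM in sgHS2, against 396, 417 and 413 CPM in sgGal4 cells (log2 −1.28 ± 0.09, adjusted p = 5.89e-07). For neither FDFT1 nor CYP51A1 did the groups overlap. SREBF2, the gene of SREBP-2 (log2 −0.12), and that of its escort SCAP (log2 −0.14) were not called.

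Against WT cells, 8 of the 27 were higher and 1 lower in sgHS2, with a median log2 difference of 0.03. CYP51A1 averaged 138 CPM in WT cells. Against sgHBG cells, 2 were higher and 0 lower. Of 17 tested fatty acid synthesis genes, 2 rose and 5 fell, among them ACLY, which makes cytosolic acetyl-CoA (log2 −0.92), and FASN, the fatty acid synthase (log2 −0.83). FASN varied within sgGal4, with 936, 1549.8 and 1581 CPM, against 815, 746 and 719 CPM in sgHS2 cells. SCD was not called (log2 0.20). The sterol element TCACNCCAC stood in 1 of 20 cholesterol promoters (5%), against 1.15% of all promoters, and in 0 of the 15 with a promoter that fell.

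DNA replication genes were lower in sgHS2 cells: of 38 tested, 1 rose and 31 fell, with a median log2 difference of −0.63. Among licensing factors, ORC6 of the origin recognition complex had 21.9, 20.8 and 21.6 CPM in sgHS2, against 58.6, 49.8 and 47.4 CPM in sgGal4 cells (log2 −1.27 ± 0.11, adjusted p = 5.02e-06). CDC6, the loader of the replicative helicase, had 46.4, 50.8 and 46.6 CPM in sgHS2, against 124, 94.7 and 94.5 CPM in sgGal4 cells (log2 −1.12). MCM3 and MCM7, subunits of that helicase, fell (log2 −0.72 and −0.81), as did PCNA, the sliding clamp (log2 −0.91), whereas MCM5 was not called (log2 −0.10). POLA1, the catalytic subunit of DNA polymerase α, was the member called higher (log2 0.42, adjusted p = 0.038), and 0 members were called higher without sgHS2 1, sgHS2 3 or sgGal4 1. Against WT cells all 38 were lower in sgHS2, with a median log2 difference of −1.23, and against sgHBG cells 17 were lower and 0 higher. The motif GCGGGAA, a form of the E2F site, stood in 14 of 33 promoters (42.4%), against 6.56% of all promoters, and in 12 of the 29 with a promoter that fell.

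Of 30 tested mitotic genes, 0 rose, 14 fell and 16 were not called, with a median log2 difference of −0.37, and 22 fell without sgHS2 2 and sgGal4 1. NUF2, a kinetochore protein, had 38.4, 41.7 and 41.3 CPM in sgHS2, against 112, 78.3 and 74.5 CPM in sgGal4 cells (log2 −1.12). TPX2, a spindle assembly factor (log2 −0.63), CDC20, an activator of the anaphase-promoting complex (log2 −0.78), and TTK, the spindle checkpoint kinase (log2 −0.88), also fell without overlap. Of 11 tested replication-dependent histone genes, 1 rose and 2 fell.

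Cytosolic ribosomal protein genes were lower in sgHS2 cells, and their levels moved with library sgGal4 1. Of 66 tested, 0 rose and 35 fell, with a median log2 difference of −0.70. Together they made up 110806, 145923 and 111892 CPM in sgHS2 1 to 3, against 293183, 137882 and 137690.0 CPM in sgGal4 1 to 3. In the sums, sgGal4 1 was far above all other libraries and sgHS2 2 was above sgGal4 2 and 3. RPS18, a small-subunit protein, had 4638, 5964 and 4858 CPM in sgHS2, against 16058, 7314 and 7367 CPM in sgGal4 cells. RPL3, of the large subunit, had 4013, 5104 and 3967 CPM in sgHS2, against 9219, 5857 and 5958 CPM in sgGal4 cells. Without sgGal4 1, 5 members were higher and 21 lower, and without sgHS2 1 or sgHS2 3 only 5 were lower in either case. Without both sgHS2 2 and sgGal4 1, 4 were higher and 55 lower, with a median of −0.38. With the length trend removed, 1 was higher and 46 lower. Against WT cells 2 were higher and 0 lower. These genes have many near-identical copies in the genome, so their counts depend on how shared reads were assigned. EEF1A1, the elongation factor that brings tRNA to the ribosome, took 4.85% of reads in sgGal4 1 and 2.80 to 3.84% in the other 5 libraries.

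Nuclear genes for mitochondrial proteins had more members lower than higher, and their levels also moved with sgGal4 1. Of 30 respiratory chain genes 0 rose and 9 fell, and of 30 mitochondrial ribosomal protein genes 0 rose and 7 fell. Without sgHS2 2 and sgGal4 1 the counts were 4 higher and 15 lower, and 3 higher and 14 lower, and the medians were −0.18 and −0.21, against −0.44 and −0.41 with all libraries. Summed over the respiratory chain list, sgHS2 1 to 3 held 5764, 6859.8 and 5775 CPM, against 10980.0, 6277 and 6188 CPM in sgGal4 1 to 3, so that sgHS2 2 lay above sgGal4 2 and 3. SDHC, a membrane subunit of succinate dehydrogenase, had 106, 107 and 108 CPM in sgHS2, against 151, 145 and 143 CPM in sgGal4 cells (log2 −0.45, adjusted p = 0.00118). MRPL16, a protein of the mitochondrial large subunit, fell (log2 −1.21), with 55.8, 72.3 and 60.8 CPM in sgHS2, against 215, 113 and 109.7 CPM in sgGal4 cells.

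Cancer-testis antigen genes, which are normally silent outside the germ line and active in many tumours, rose: of 17 tested, 12 were higher and 0 lower, with a median log2 difference of 1.34. MAGEA1 had 39.0, 44.2 and 36.8 CPM in sgHS2, against 2.70, 2.42 and 2.02 CPM in sgGal4 cells (log2 4.08 ± 0.20, adjusted p = 8.69e-08). MAGEA8 had 146 reads in sgHS2 and 0 in sgGal4 libraries, at least 43.5-fold higher with 3 counts over the sgGal4 group as the floor. MAGEA4 (log2 3.37) and MAGEB2 (log2 2.25) rose too, while PRAME (log2 −0.04) and PAGE5 (log2 −0.05) were not called. WT cells held MAGEA1 at 44.2 CPM and MAGEA8 at 7.06 CPM, and neither was called between sgHS2 and WT cells. MAGEA4 was higher in sgHS2 than in WT cells (4.17 CPM, log2 2.07). MAGE family members share sequence, so reads may be split between copies.

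Matrix and adhesion genes included some of the largest differences in both directions. Of 26 tested matrix and collagen genes, 3 rose and 12 fell, with a median log2 difference of −0.60. FN1, fibronectin, had 77.0, 51.6 and 71.5 CPM in sgHS2, against 0.851, 1.65 and 1.47 CPM in sgGal4 cells (log2 5.60 ± 0.69, adjusted p = 7.88e-05), with 15.2 CPM in sgHBG and 306 CPM in WT cells. COL11A1, a fibrillar collagen, had 0.175, 0.215 and 0.0921 CPM in sgHS2, against 8.79, 12 and 12.8 CPM in sgGal4 cells (log2 −6.03). TIMP3, a matrix protease inhibitor, had 3.06, 3.75 and 2.39 CPM in sgHS2, against 53.1, 52.0 and 52.4 CPM in sgGal4 cells (log2 −4.10). In WT cells COL11A1 had 0 CPM and TIMP3 0.281 CPM on average. Of 23 adhesion genes, 4 rose and 3 fell. ITGA4, the α4 integrin, fell to 6.91, 5.47 and 9.67 CPM in sgHS2, against 62.6, 138 and 135 CPM in sgGal4 cells, and CD44, the hyaluronan receptor, fell too (log2 −1.02). ALCAM, an adhesion molecule of leukocytes, had 0.858 to 1.92 CPM in sgHS2, against 30.2 to 44.8 CPM in sgGal4 cells.

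**Figure D2:**
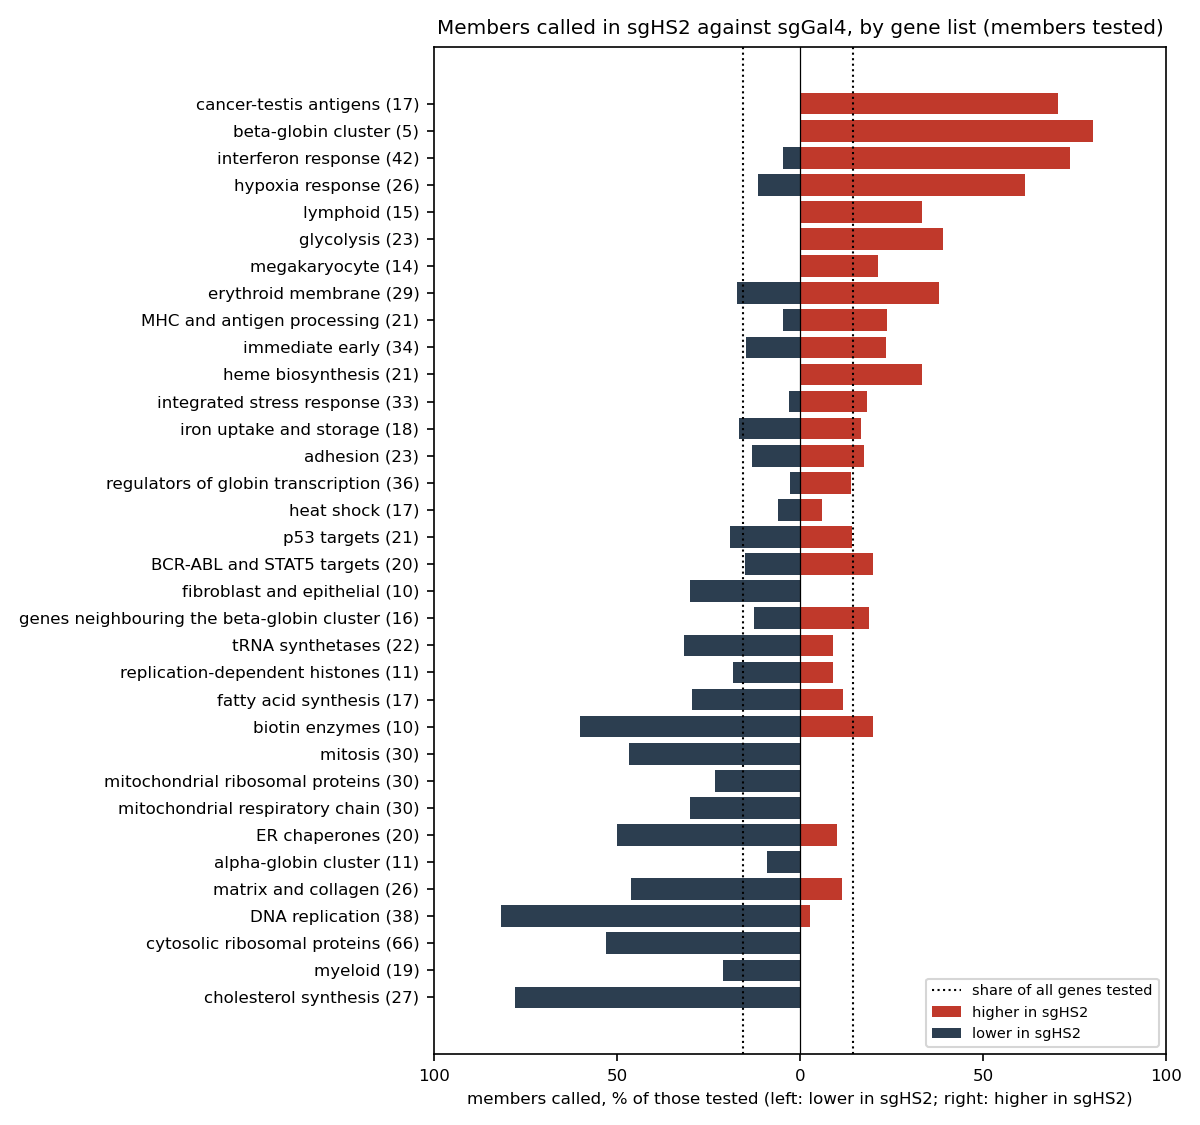
Share of tested members called higher (right) or lower (left) in sgHS2 than in sgGal4 cells for each gene list, ordered by median log2 difference, with dotted lines at the shares over all genes (14.5% and 15.6%). Cancer-testis, β-globin, interferon and hypoxia lists lie far to the right and cholesterol synthesis and DNA replication lists far to the left.

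Markers of other blood and tissue cells gave mixed counts. Of 14 tested megakaryocyte genes, 3 rose and 0 fell, with the tubulin TUBB1 (log2 1.48), the platelet integrin ITGB3 (log2 1.24) and thrombospondin THBS1 (log2 0.96) higher, while PF4, GP1BB and TREML1 had 0 counts in all 6 libraries. Of 19 myeloid genes, 0 rose and 4 fell. MS4A3, a gene of granulocyte progenitors, had 243, 261 and 234 CPM in sgHS2, against 733, 599 and 603 CPM in sgGal4 cells (log2 −1.39), and LYZ, lysozyme, fell as well (log2 −1.57), although its call was lost when any 1 of the 3 sgHS2 libraries was left out. The list's sum was 722 to 779 CPM in sgHS2, against 1350.3 to 1424 CPM in sgGal4 libraries, and S100A8 was at 0 in all 6. MS4A3 alone held 246 CPM of this sum on average in sgHS2 and 645 CPM in sgGal4 cells. The other 15 tested myeloid genes were not called. Among them ITGAM had more reads in sgHS2 (107, 75 and 81) than in sgGal4 libraries (35, 60 and 53). Of 15 lymphoid genes, 5 rose and 0 fell, with CD3D, a T cell receptor subunit, at 14.3, 16.6 and 15.5 CPM in sgHS2, against 3.69, 2.03 and 0.642 CPM in sgGal4 cells. CD2, MS4A1, EBF1 and GZMB were at 0 in all 6 libraries. Of 10 fibroblast and epithelial genes, 0 rose and 3 fell, and LUM and THY1 were at 0 in all 6 libraries. The part of such cells in the results was not tested.

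The genes with the largest log2 differences were low or absent in 1 of the groups. Besides MAGEA8, CXCL10, DDX60 and FN1, the 12 highest held LIMCH1, an actin regulator (80 reads in sgHS2 and 0 in sgGal4 libraries, at least 23.9-fold higher), and CFI, complement factor I, with 8.66, 11.6 and 10.6 CPM in sgHS2, against 0.284, 0.194 and 0 CPM in sgGal4 cells. Also among them were F8, coagulation factor VIII (16.0, 9.22 and 17.2 CPM in sgHS2, against 0.284, 0.290 and 0.826 CPM in sgGal4 cells), ZNF350, a zinc finger repressor, PRR9, TMEM232, the elastase gene CELA2A and the neuroligin NLGN4X. In WT cells FN1 at 306 CPM, F8 at 24.7 CPM and MAGEA8 at 7.06 CPM were above the sgHS2 level, whereas LIMCH1, CELA2A and NLGN4X were each under 0.1 CPM.

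The 12 lowest were at or under 1.38 CPM in every sgHS2 library, and their means in WT cells were at or under 0.699 CPM. CLCA1, a secreted chloride channel regulator, had 0 reads in sgHS2 and 138 in sgGal4 libraries, at least 51.4-fold lower. EPB41L3, a membrane skeleton protein, had 1 read in sgHS2 and 191 in sgGal4 libraries, a sgGal4 over sgHS2 ratio of 214 (95% interval 37.9 to 8477), and GABRA2, a GABA receptor subunit, had 2 in sgHS2 and 303 in sgGal4 libraries, a like ratio of 169 (46.5 to 1405). SLC6A15, a neutral amino acid transporter, had 1.14, 1.07 and 1.38 CPM in sgHS2, against 39.7, 57.7 and 53 CPM in sgGal4 cells (log2 −5.37 ± 0.22, adjusted p = 7.56e-08), with 20.7 CPM in sgHBG and 0 CPM in WT cells. The others were GUCY1B3, ACSS1, COL11A1, HNF4G, TMEM176A, COL24A1, PDGFC and CKAP4.

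**Figure D3:**
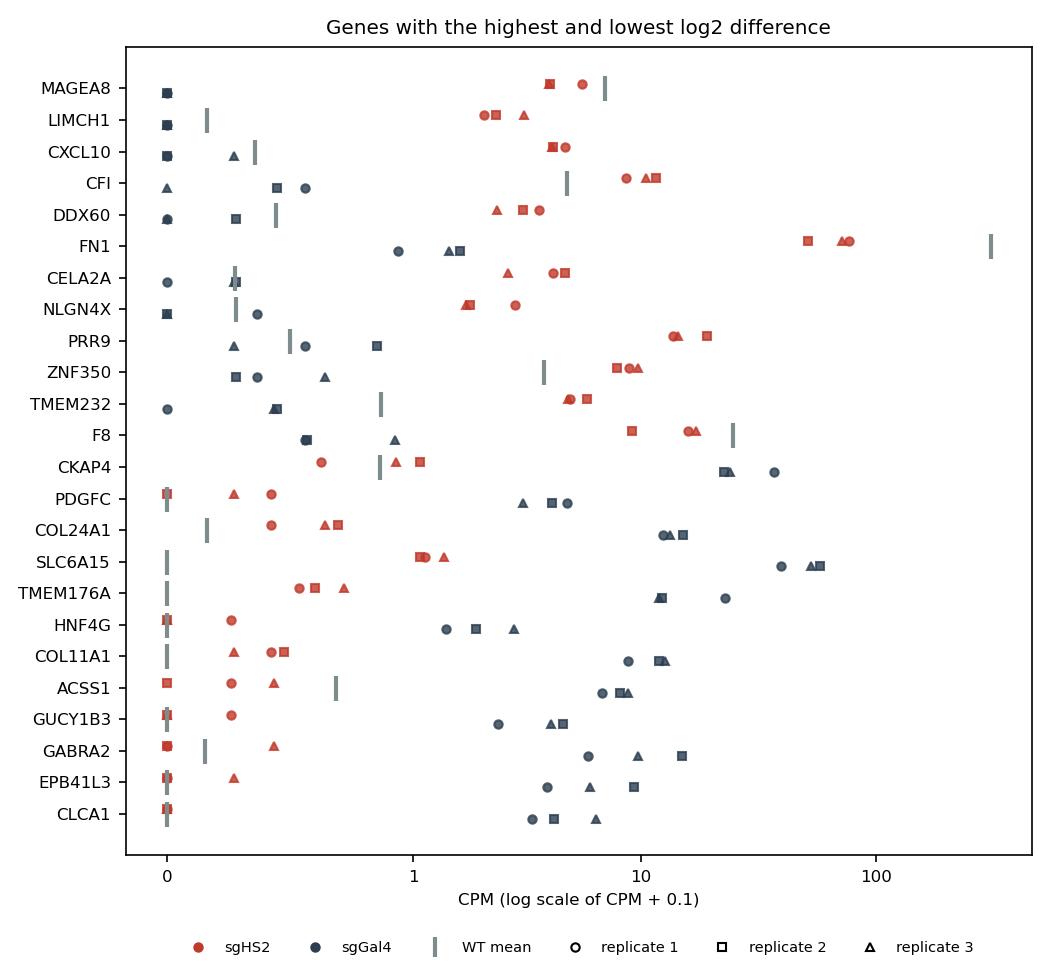
CPM on a log scale, after adding 0.1, of the 12 genes at the top and the 12 at the bottom of the order by log2 difference, for each sgHS2 and sgGal4 library, with the WT mean as a grey bar. The naming rule took only genes without overlap between the groups. WT lies near 0 for most of the genes that are low in sgHS2 cells.

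Among genes with the largest difference in CPM, ATF5, a stress-induced transcription factor, had 792, 942 and 794 CPM in sgHS2, against 303, 203 and 202 CPM in sgGal4 cells (log2 1.84), and WT cells had 929 CPM. FLNA, filamin A, a long transcript, had 997, 854 and 901 CPM in sgHS2, against 224, 464 and 474 CPM in sgGal4 cells, with sgGal4 1 the lowest. FAM83A, a signalling scaffold, rose as well (log2 0.95). The 10 genes with the largest fall in CPM were the elongation factor genes EEF1A1 and EEF1G and 8 ribosomal protein genes, and EEF1G was not called without sgHS2 1 or sgHS2 3.

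**Figure D4:**
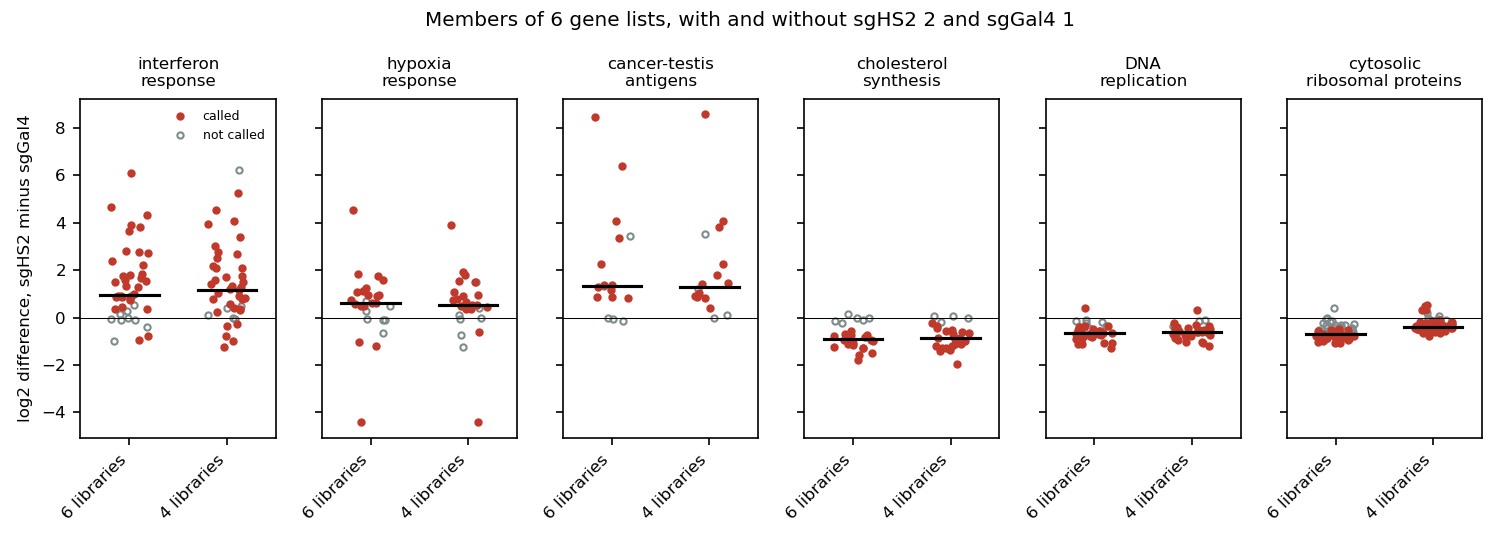
Log2 differences between sgHS2 and sgGal4 cells of the members of 6 gene lists, with all 6 libraries and with the 4 left without sgHS2 2 and sgGal4 1, called members filled and medians as lines. Values and calls come from the fit of all 14 libraries and from the same fit without these 2, so the other groups also entered. The medians of interferon (0.96 and 1.17), hypoxia (0.60 and 0.54) and cholesterol (−0.91 and −0.86) genes keep their side of 0 with 6 and with 4 libraries, and that of ribosomal protein genes lies nearer to 0 with 4 (−0.38) than with 6 (−0.70).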

How the data were processed

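RNA of 14 K562 libraries was sequenced on an Illumina NextSeq500 after TruSeq library preparation, per the labels' protocols. The authors deposited a table of read counts per gene (24729 genes) and a table of RPKM values (25268 genes). TopHat, Cufflinks, DESeq and genome build hg19 are named in the submitters' processing notes, while versions, strand setting and the treatment of multiply mapped reads are not given in the sources used here.

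The deposited counts were filtered with filterByExpr (minimum count 10, minimum total 15), scaled by TMM, and fitted for all 14 libraries with 5 group means (9 residual degrees of freedom) by edgeR 4.0.16 quasi-likelihood tests in R 4.3.3. All adjusted p values are edgeR's with Benjamini-Hochberg adjustment over 14406 genes. CPM are counts scaled to the TMM-adjusted library size. Alternatives used limma 3.58.1 and DESeq2 1.42.0, and the script was tested on simulated data. A transcript-length trend, with GENCODE lengths for 94.1% of tested genes, was removed as an offset in an alternative.

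The comparison and 35 gene lists were chosen with earlier results of these data known. The naming rule took genes called with a mean of at least 1 CPM, without overlap and called without sgHS2 2 and sgGal4 1: the 12 highest and 12 lowest log2 differences, the 10 largest CPM differences each way, all β-globin genes and up to 4 members per list with the lowest p. Other members named were chosen after their values were seen. Promoters are from RefSeq (GRCh38.p14), used for letters and not joined to the hg19 data. HBE1, HBG1 and HBG2 promoters were not used here. Some genes that meet the naming rule or belong to the lists are not reported here.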

Additional observations from a re-analysis of the deposited data

How the results depend on the processing

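Of the named genes' log2 differences and the counts of genes, none changed sign with a call under the 19 settings tried, while list medians near 0 did change sign (fibroblast and epithelial genes −0.07, and 0.11 without sgHS2 2 and sgGal4 1). Fitting only the 6 compared libraries gave 1216 higher and 1090 lower genes, with log2 differences of 1.04 for HBE1 and 0.95 for HBG1, both no longer called. Same-numbered replicates had correlations of deviations of −0.46, −0.52 and 0.35. Because sgGal4 1 and sgHS2 2 stood apart within their groups, these correlations cannot show if the numbers pair the libraries. With the replicate block in that 6-library fit, 462 genes were higher and 411 lower, and HBE1 (log2 1.15), HBG2 (1.71), HBG1 (1.11) and HBBP1 (1.43) were not called. HBD was called with limma voom (0.59), with the length trend removed (0.72), without sgHS2 2 and sgGal4 1 (0.73) and without sgGal4 1 (0.79). HBG1 was not called without sgHS1-5 2 and sgHS1-5 3, a setting chosen after seeing the data (0.94), as was leaving out sgGal4 1 from the comparison of sgGal4 with WT cells. The causes were not tested. Leaving out each library in turn gave 1522 to 2720 higher and 1503 to 2754 lower genes, and log2 differences of 0.82 to 1.53 for HBE1, 1.26 to 2.19 for HBG2, 0.68 to 1.59 for HBG1, 1.21 to 1.64 for HBBP1 and 0.36 to 0.79 for HBD. Of the named genes' values over all settings, 2977 kept their side of the threshold, 32 gained a call and 223 lost it, 88 of these with the block. Genes named by log2 or CPM difference had to be called, also without sgHS2 2 and sgGal4 1, and list members had the lowest p. The tally and the lack of sign changes among named genes therefore rest in part on this selection and are no independent check. Of the list counts, 1060 stayed within 1.5 times and 270 did not. Depth limits genes near 3 counts per library.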

Other observations

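Further gene groups not described above were called in both directions. Over all genes tested, 14.5% were higher and 15.6% lower, and a count near these shares does not set a group apart. Of 20 tested ER chaperone genes, 2 were higher and 10 lower in sgHS2 than in sgGal4 cells, with a median log2 difference of −0.48. CALR, the chaperone calreticulin, had 630, 762 and 630 CPM in sgHS2, against 1198, 1074 and 1042 CPM in sgGal4 cells, and HYOU1, a large chaperone of the ER lumen, fell as well (log2 −0.66). DNAJB9, a cochaperone of BiP, was higher (log2 0.44). Of 22 aminoacyl-tRNA synthetase genes, 2 were higher and 7 lower, with AARS, the alanine enzyme, at 914, 974 and 884 CPM in sgHS2, against 1777, 1350.5 and 1377 CPM in sgGal4 cells. Of 33 genes of the integrated stress response, 6 were higher and 1 lower, near the background of 14.5% and below that of 15.6%. SLC7A11, the cystine transporter, was higher (log2 1.29), and ASNS, asparagine synthetase, was the member that was lower (log2 −0.85).

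The counts of the following groups stand beside 14.5% higher and 15.6% lower over all genes tested. Of 34 immediate early genes, 8 were higher and 5 lower. EGR1, a zinc finger factor of growth signalling, had 140.3, 140.2 and 135 CPM in sgHS2, against 42.6, 62.2 and 62.9 CPM in sgGal4 cells, while KLF2, a Krüppel-like factor, was lower (log2 −2.09). Of 21 MHC and antigen processing genes, 5 were higher and 1 lower, and 8 were higher without sgGal4 1. TAP1, a peptide transporter of the ER, was among them (log2 1.17), as was PSMB9, a subunit of the immunoproteasome (log2 1.63). Because BirA and the biotin-acceptor tag use biotin in all cells with FB-dCas9, biotin enzymes were listed as well: of 10, 2 were higher and 6 lower. ACACB, a biotin-dependent acetyl-CoA carboxylase, was higher (log2 2.20), and PCCB, a subunit of propionyl-CoA carboxylase, was lower (log2 −0.77). Heat shock genes gave 1 higher and 1 lower of 17.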
